A study of Mus musculus with 6 samples.

Results

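The genes described here are 32 regulators of apoptosis and targets of the transcription factor p53, taken by name from a fixed list. The list was chosen with earlier results of these data known. NCBI gene numbers in the files were matched to mouse symbols, and a gene that a file does not list was counted as 0. Of the 32, 31 were listed in the files and all 31 passed the filter on low counts, out of 16871 genes listed and 11809 tested. Perp, a p53 target that encodes a membrane protein of cell junctions, was in none of the 6 files and is counted as 0 throughout.

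RNA was sequenced from macrophages that had been grown in culture from the bone marrow of C57BL/6 mice aged 8 weeks. After 7 days in culture, all cells were given oxidised low-density lipoprotein (oxLDL), the modified lipoprotein that loads macrophages with cholesterol in atherosclerotic plaques. The control group (LKO, 3 libraries) carried a background gene knockout, and the other group (DKO, 3 libraries) carried the same knockout and also lacked ALDH2, the mitochondrial aldehyde dehydrogenase that clears toxic aldehydes. The background knockout and the oxLDL were therefore shared by both groups, and there was no untreated or wild-type library. How the alleles were made, and whether each library came from its own mouse, is not stated in the labels. The p-values therefore cover only the variation among these libraries, which may be technical.

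p53 is held low by the ubiquitin ligase MDM2 and, when it accumulates after damage, switches on genes that arrest the cell cycle and genes that prime the cell to die. In the mitochondrial route to apoptosis, BH3-only proteins such as PUMA and NOXA each neutralise some or all of the survival proteins BCL2, BCL-XL and MCL1. This lets BAX and BAK open the outer mitochondrial membrane, after which APAF1 and caspase-9 form the apoptosome. In the death receptor route, FAS and TRAIL receptors activate caspase-8, which cFLIP restrains, and the inhibitor of apoptosis proteins (IAPs) hold back caspases or the signals that lead to them. Death of lipid-loaded macrophages is one of the processes by which plaques form a necrotic core.

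The labels were checked first. Aldh2 stood at 248.6, 239 and 236 FPKM in LKO and at 7.00, 7.06 and 7.34 in DKO. FPKM scales the read count to transcript length and library depth, so that levels of different genes can be set side by side. Libraries held between 10760625 and 10987584 expected counts. Macrophage markers were present in every library (all 12 listed, summed FPKM 11300 to 12000 in LKO and 12500 to 13700 in DKO), with 5 higher, 2 lower and 5 not passing. Of neutrophil markers, 8 of 13 tested were lower in DKO and none higher (summed FPKM of the 14 listed 628 to 685 in LKO, 424 to 463 in DKO). Of stromal markers, 6 of 7 tested were higher and none lower (summed FPKM of the 10 listed 34.5 to 40.8 and 59.3 to 79.8). Of lymphocyte markers, 5 of 7 tested were lower and none higher (summed FPKM of the 11 listed 112 to 124 and 86.7 to 95.4). Over the alternatives these counts fell to 5 for neutrophil markers (without LKO replicate 2 or DKO replicate 2, among others), 3 for stromal markers (without DKO replicate 2 and in limma) and 2 for lymphocyte markers (in limma without a filter, and 3 without DKO replicate 3). No marker of these 4 lists was at 0 in all libraries. Mast cell, dendritic and erythroid markers summed to at most 1.06, 3.76 and 0.90 FPKM in any library. Hbb-bs and Hbb-bt were listed in no library and were counted as 0, and whether the authors' annotation holds them was not checked. In bulk RNA, fewer cells of a type and less RNA per cell cannot be told apart, and the part of these markers in the results below was not tested.

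At an edgeR adjusted p of 0.05, 7 of the 31 passed, which is 22.6% against 14.3% of all genes tested. Higher in DKO were Zmat3, Cdkn1a, Bak1 and Bbc3 (4 of 31, against 7.42% of all genes called higher), and lower were Pmaip1, Bcl2 and Moap1 (3 of 31, against 6.88% called lower). The other 24 did not pass. The median log2 fold change of the 31 was 0.02, beside 0.00 over all genes tested. The FPKM values of the 2 groups did not overlap for 11 of the 31, or 35.5%, against 29.6% of all genes. These shares describe the list, which was chosen with earlier results known, and were not tested against the background.

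**Figure D1:**
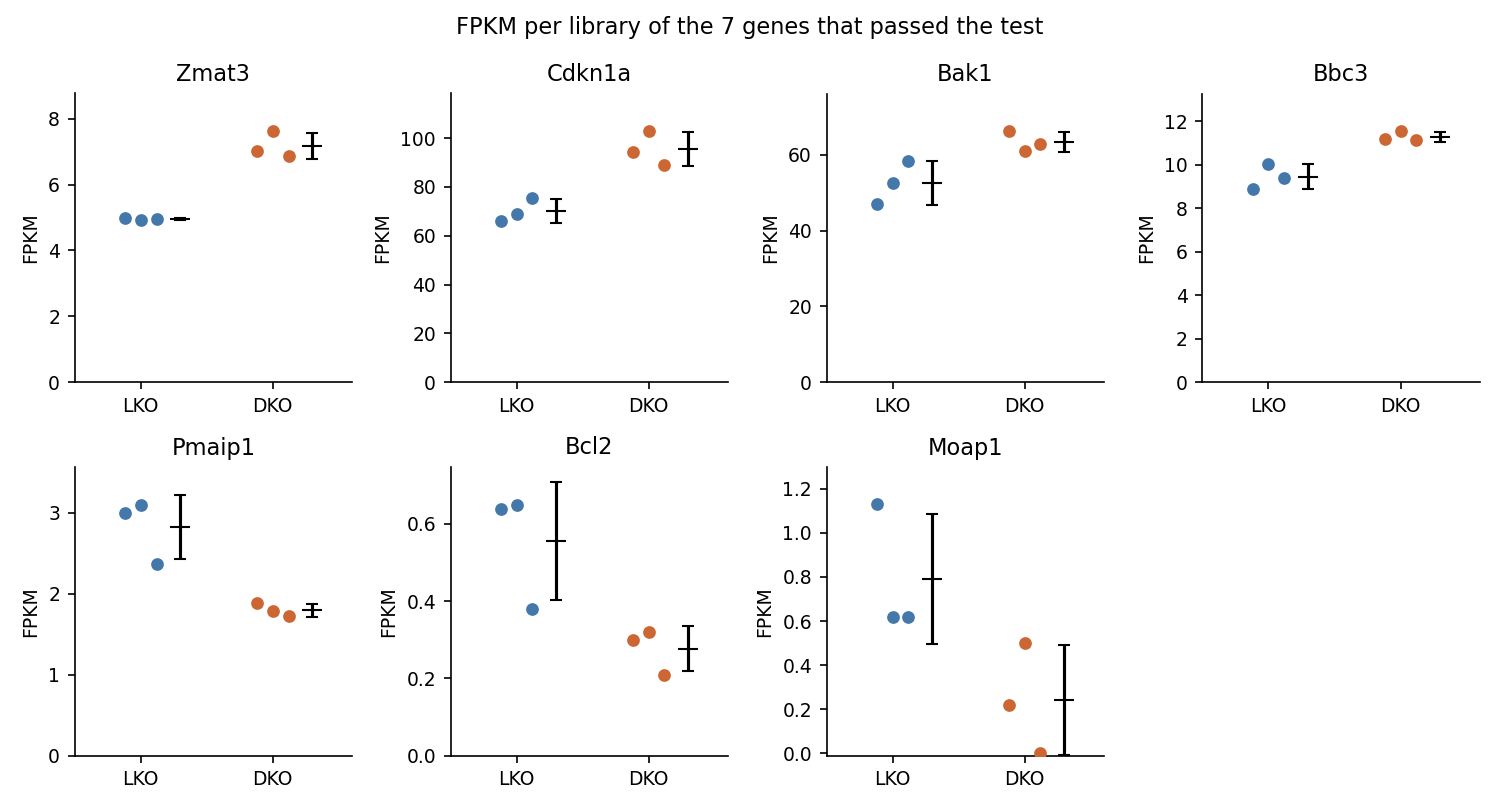
FPKM (vertical axis, from 0) in each of the 3 LKO and 3 DKO libraries for the 7 genes that passed; bars are the mean ± SD of 3 libraries. Zmat3, Cdkn1a, Bak1 and Bbc3 sit higher in every DKO library than in any LKO library, and Pmaip1, Bcl2 and Moap1 lower; Bcl2 and Moap1 lie near or under 1 FPKM.

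p53 itself and its ligase did not pass. Trp53 was at 31.2, 36.8 and 38.3 FPKM in LKO and at 34.4, 35.1 and 36.5 in DKO, with overlapping groups and a fold of 1.01 (95% confidence interval 0.91 to 1.11, edgeR adjusted p = 0.954). Mdm2, which is both the ligase of p53 and one of its transcriptional targets, was at 28.9, 28.0 and 27.7 FPKM in LKO and 30.5, 33.3 and 29.7 in DKO. All DKO values of Mdm2 lay above all LKO values, but the fold of 1.11 (1.03 to 1.20) did not pass (edgeR adjusted p = 0.0681); without LKO replicate 1 it did, narrowly (0.0497).

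Among the 10 p53 targets of arrest and stress, 2 of the 9 tested rose, none fell and 7 did not pass. The shares over all genes were 7.42% higher and 6.88% lower. The median log2 fold change of the 9 was 0.09. Zmat3 (NCBI gene 22401), a zinc finger protein that binds RNA and is induced by p53, was at 4.98, 4.93 and 4.95 FPKM in LKO and at 7.02, 7.62 and 6.86 in DKO. The LKO libraries were within 0.05 FPKM of each other and the lowest DKO value stood well above them. Its fold was 1.46 (1.33 to 1.6, edgeR adjusted p = 1.75e-06). Cdkn1a (NCBI gene 12575), which encodes the cyclin-dependent kinase inhibitor p21, was at 65.9, 68.8 and 75.6 FPKM in LKO and at 94.4, 103 and 89.0 in DKO. Every DKO library was above every LKO library, and the fold was 1.37 (1.26 to 1.49, edgeR adjusted p = 7.30e-06). Both calls held in all 13 alternatives run, which were other tests, filters and scalings and each library left out in turn.

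Among the other targets of this group, the abundant members had narrow intervals, and all of these but that of Trp53inp1 included a fold of 1. Ccng1, a cyclin G that is a classical p53 target, was between 96.4 and 103 FPKM in LKO and between 94.2 and 105 in DKO, a fold of 1.0 (0.93 to 1.07). Sesn1, a sestrin that restrains mTORC1 under stress, was the second most abundant of the 31 genes, at 185 to 200 FPKM in LKO and 177 to 186 in DKO, with a fold of 0.96 (0.91 to 1.02). Ei24, a membrane protein of the endoplasmic reticulum, had a fold of 1.07 (0.98 to 1.16), and Aen, a p53-induced nuclease, 1.04 (0.91 to 1.18). Trp53inp1, a cofactor of p53 with a role in autophagy, had 1.11 (1.01 to 1.22, edgeR adjusted p = 0.133). The intervals of the least abundant members were wider. Phlda3, an inhibitor of AKT, had values of 7.34, 8.34 and 8.46 FPKM in LKO. In DKO, replicates 1 and 2 were at 9.95 and above, and replicate 3, at 6.83, was below all LKO libraries. Its fold of 1.16 (0.95 to 1.42) did not pass with all libraries (edgeR adjusted p = 0.371) and did without DKO replicate 3 (0.0438). Gadd45a, a stress-induced growth arrest protein, ranged from 3.54 to 4.92 FPKM in LKO and from 3.03 to 6.02 in DKO, and the interval of its fold, 0.73 to 1.34, leaves room for changes of that size in either direction. On the opposite strand, E230016M11Rik shares 337 exon bases with Gadd45a and had 6 to 20 counts in a library.

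**Figure D2:**
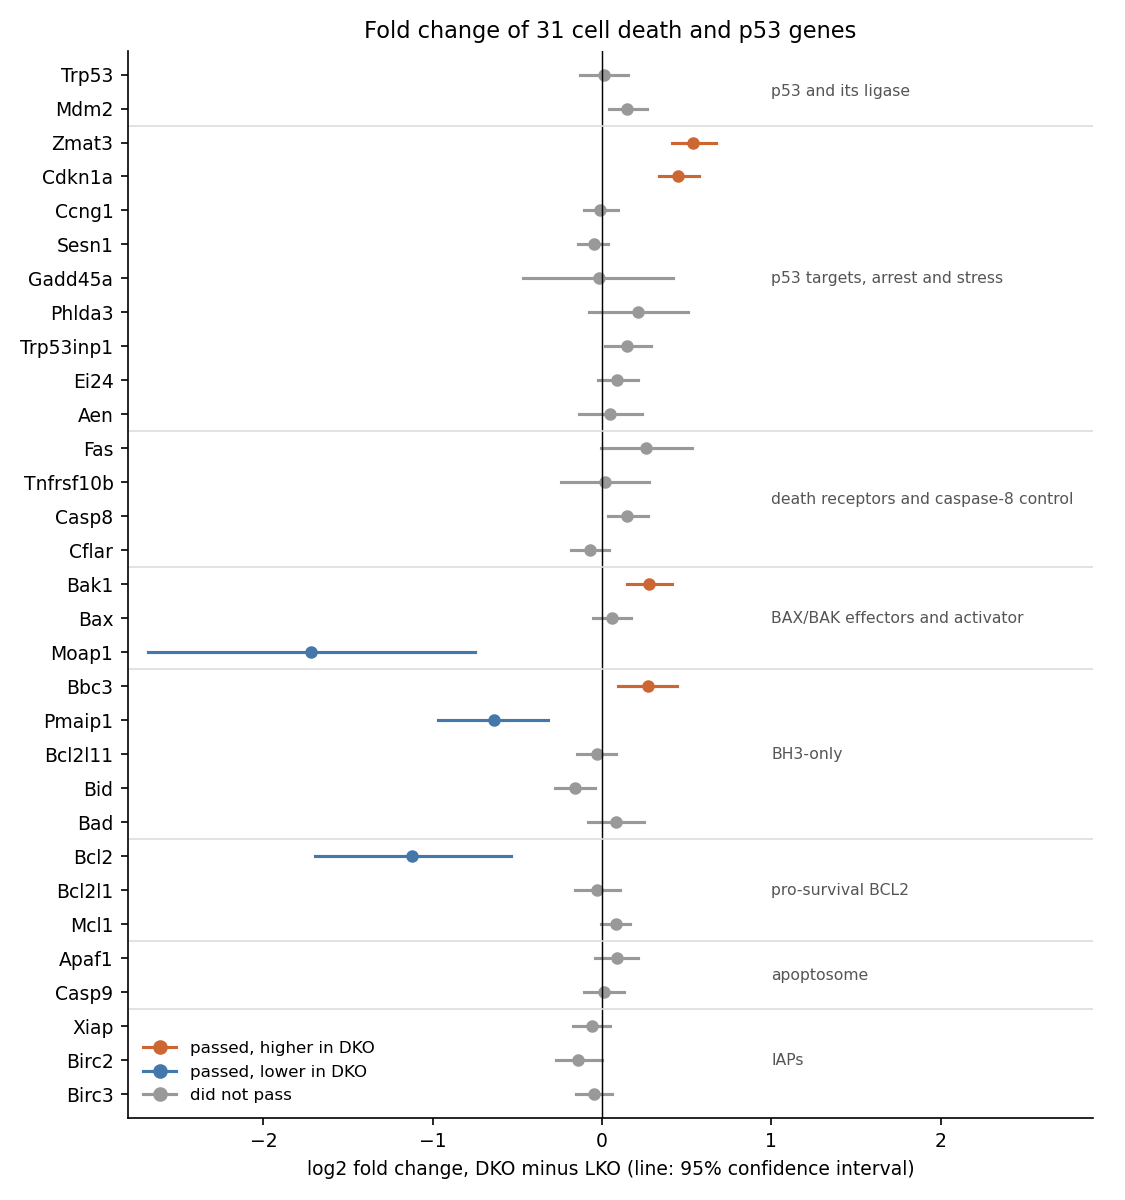
log2 fold change (DKO minus LKO, horizontal axis) of the 31 genes tested, ordered by role; points are edgeR estimates and lines their 95% confidence intervals. Most grey intervals are short and lie near 0, while those of Moap1, Bcl2, Pmaip1 and Gadd45a are wide.

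The sequences before the transcription starts show which of these genes carry letters of the p53 motif close to the start. The motif searched is the p53 decamer, the 10-base unit of which a p53 response element holds a pair; it reads the same on both strands. RefSeq promoter sequences (GRCm38.p6, 250 bases before and 50 after each start) were matched by gene number for 27 of the 32 genes. The decamer was in a window of 10 of these 27 genes, or 37.0%, against 9.55% of the 27025 genes with a window. Counted by window, since some genes have several starts, 11 of 39 held it (28.2%, against 8.36% of all windows). Many of the 32 were listed because they are p53 targets. Of the 7 genes that passed the test, 5 had a window, and only that of Cdkn1a held the decamer. That window, before the upstream of its 2 listed starts, held 2 decamers with 12 bases between them. Only exact matches were counted. The 10 bases directly after the second decamer miss the motif only at their first letter, and are in lower case below. A pair no more than 13 bases apart was found in 24 of 32851 windows, or 0.0731%. The window at the other Cdkn1a start held none. A match is a description of letters and not a measured binding site, and the windows are short. The 250 bases before the upstream Cdkn1a start are at chr17:29090729-29090978, plus strand, with the decamers in capitals.
Cdkn1a: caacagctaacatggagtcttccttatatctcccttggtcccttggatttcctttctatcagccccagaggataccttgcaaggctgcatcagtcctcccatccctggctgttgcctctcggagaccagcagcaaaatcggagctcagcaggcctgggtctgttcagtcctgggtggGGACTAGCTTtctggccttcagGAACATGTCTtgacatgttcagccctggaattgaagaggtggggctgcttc
The following stretches of 30 bases show the decamer (capitals) in some of the genes that hold it before the start and did not pass the test.
Mdm2: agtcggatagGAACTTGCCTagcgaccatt
Trp53: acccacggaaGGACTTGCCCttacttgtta
Ccng1: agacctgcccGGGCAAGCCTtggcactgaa
Ei24: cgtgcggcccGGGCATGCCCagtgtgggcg
Bax: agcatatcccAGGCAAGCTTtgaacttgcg
Gadd45a: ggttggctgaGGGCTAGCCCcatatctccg

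In these sequences the decamer begins 186 bases before the start in Mdm2, 75 in Trp53, 185 in Ccng1, 10 in Ei24, 201 in Bax and 40 in Gadd45a. Sesn1, Aen and Birc2 are the remaining 3 genes with a match, and their stretches are not printed. The decamer begins 173 bases before a listed start in Sesn1 and 121 before a listed start in Aen. In Birc2 it lies after a listed start. The folds of these 9 genes lay between 0.91 for Birc2 and 1.11 for Mdm2, beside 1.37 for Cdkn1a. Bak1 and Bbc3, which rose, had no decamer in their windows, and Zmat3 and Pmaip1 are not in the promoter table used.

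None of the 4 death receptor genes passed. Fas was at 8.00, 8.90 and 7.03 FPKM in LKO and at 9.44, 8.11 and 11.4 in DKO. The groups overlapped, and its fold was 1.20 (1.0 to 1.44, edgeR adjusted p = 0.202). Tnfrsf10b, the mouse TRAIL death receptor, averaged 3.42 ± 0.368 FPKM over the LKO libraries and 3.44 ± 0.386 over the DKO libraries (SD, n = 3 each), a fold of 1.01 (0.84 to 1.21). Casp8, the initiator caspase of this route, was at 36.4, 33.5 and 34.2 FPKM in LKO and 41.2, 37.3 and 36.4 in DKO, with a gap of under 0.1 FPKM between the groups and a fold of 1.11 (1.03 to 1.21, edgeR adjusted p = 0.0785). Casp8 passed without LKO replicate 1 (0.039). Cflar, which encodes cFLIP, had a fold of 0.95 (0.88 to 1.03).

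The pore-forming effectors differed in their calls. Bak1 (NCBI gene 12018), which encodes BAK, was at 47.0, 52.5 and 58.5 FPKM in LKO and at 66.3, 61.2 and 62.9 in DKO. The LKO libraries were the more spread, and the highest of them came within 3 FPKM of the lowest DKO library. The fold was 1.21 (1.11 to 1.33, edgeR adjusted p = 0.00373). Limma on log2(FPKM + 1) did not call it (adjusted p = 0.0518). On the opposite strand, Ggnbp1 shares exon bases with Bak1 but had at most 3 counts in a library, against at least 1035 of Bak1. Bax was the more abundant of the pair, at 108, 103 and 113 FPKM in LKO and 115, 106 and 114 in DKO, with overlapping groups and a fold of 1.04 (0.96 to 1.13, edgeR adjusted p = 0.563). Bax stood at 1.94 to 2.29 times the FPKM of Bak1 in LKO and at 1.73 to 1.82 times in DKO; the difference between the 2 genes' folds was not tested.

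Moap1 (NCBI gene 64113), which encodes a BAX-binding activator, had the largest change of the 31 genes, and a locus that overlaps it moved the other way. Its FPKM values were 1.13, 0.62 and 0.62 in LKO and 0.22, 0.50 and 0 in DKO, from expected counts of 45.9, 24.9 and 25.1 and of 9.16, 20.4 and 0. All DKO values lay below all LKO values, and the fold was 0.30 (0.16 to 0.59, edgeR adjusted p = 0.0145). The predicted locus Gm20604 lies on the same strand and shares 1165 exon bases with Moap1 in the GENCODE M21 annotation (GRCm38). Whether the annotation the authors counted on has the same overlap was not checked, and the sum below rests on it. Its expected counts were 56.9, 66.3 and 76.4 in LKO and 83.5, 85.9 and 110 in DKO (fold 1.40, 1.12 to 1.75, edgeR adjusted p = 0.0416). The counts of both loci were fractional. Summed, the pair had 103, 91.2 and 101 counts in LKO and 92.6, 106 and 110 in DKO, and these groups overlapped. With the sum in place of Moap1, a fit chosen after seeing the data, the log2 fold change was 0.06 (edgeR adjusted p = 0.839). Taken alone, Moap1 also missed the threshold with either replicate 1 removed (LKO 0.0878, DKO 0.0636) and in DESeq2 (adjusted p = 0.524). Its log2 fold change was −2.798 when DKO replicate 2 was removed, against −1.72 with all libraries.

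**Figure D3:**
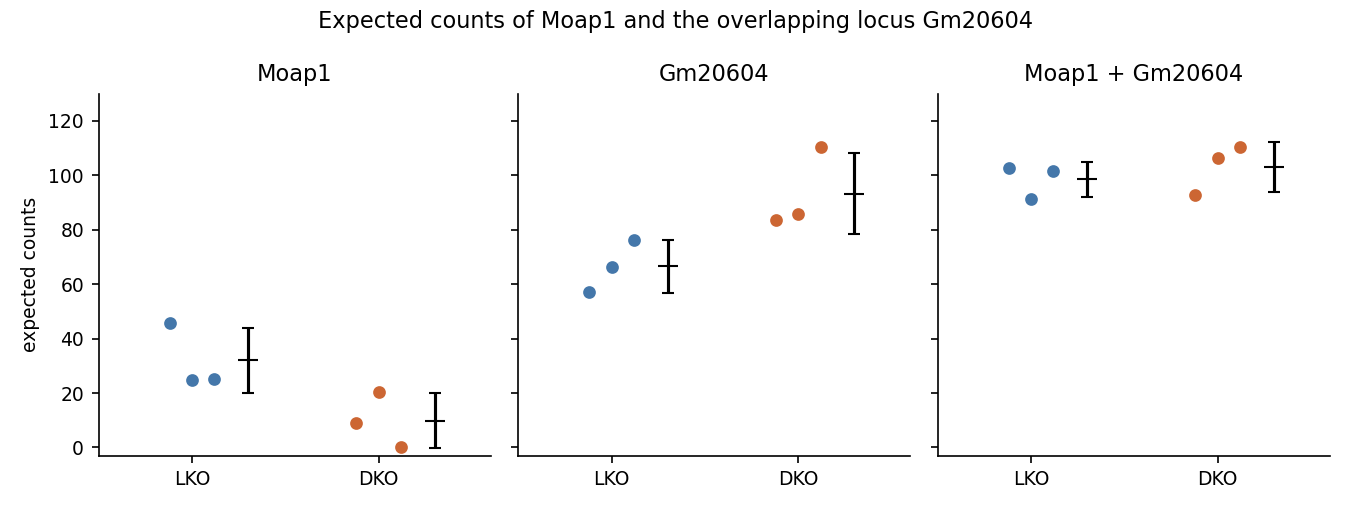
Expected counts (vertical axis, shared by the 3 panels) per library of Moap1, of the overlapping locus Gm20604 and of their sum; bars are the mean ± SD of 3 libraries. Moap1 is lower and Gm20604 higher in DKO, while the sums, 91.2 to 103 in LKO and 92.6 to 110 in DKO, overlap.

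Of the 5 BH3-only genes, 1 rose, 1 fell and 3 did not pass (against 7.42% of all genes called higher and 6.88% lower). Bbc3 (NCBI gene 170770), which encodes the p53-induced killer PUMA, was at 8.90, 10.04 and 9.37 FPKM in LKO and at 11.2, 11.5 and 11.1 in DKO. The DKO libraries were close together and all above LKO, with a fold of 1.20 (1.07 to 1.36, edgeR adjusted p = 0.0324). This call was lost in DESeq2 (adjusted p = 0.177), in edgeR without a count filter (0.0508), in limma without a filter (0.0677) and when any library but LKO replicate 2 was left out (0.0735 to 0.11). Pmaip1 (NCBI gene 58801), which encodes NOXA, the BH3-only protein that targets MCL1, was at 3.00, 3.10 and 2.37 FPKM in LKO and at 1.88, 1.79 and 1.72 in DKO. It is also a p53 target, and its direction was opposite to that of Bbc3. The fold was 0.64 (0.51 to 0.80, edgeR adjusted p = 0.0062). The call held in 12 of 13 alternatives, the exception being limma without a filter (adjusted p = 0.0599). Within a library, Bbc3 stood at 2.97 to 3.95 times the FPKM of Pmaip1 in LKO and at 5.96 to 6.47 times in DKO. Since neither gene's groups overlapped and the directions were opposite, these ratios had to separate. They add nothing to the calls above.

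The 3 BH3-only genes that did not pass were more abundant. Bid, the BH3-only link from caspase-8 to mitochondria, was at 34.9, 34.7 and 34.6 FPKM in LKO and at 31.8, 31.1 and 29.7 in DKO. The groups did not overlap, and the fold of 0.89 (0.82 to 0.97) did not pass edgeR (adjusted p = 0.0633) but did pass limma on log2(FPKM + 1) (adjusted p = 0.0419). Bid shares 628 exon bases with Bcl2l13 on the opposite strand, and whether strand was used in counting is not stated. Bcl2l11, which encodes BIM, was between 16.3 and 17.1 FPKM in LKO and between 15.3 and 16.5 in DKO, a fold of 0.98 (0.90 to 1.06). Bad, a BH3-only protein held in check by phosphorylation, had a fold of 1.06 (0.95 to 1.19); it shares 524 exon bases with Gpr137 on the opposite strand.

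Among the 3 survival genes of the list, Bcl2 (NCBI gene 12043) fell from a low level while the abundant members did not pass. Bcl2 was at 0.64, 0.65 and 0.38 FPKM in LKO and at 0.30, 0.32 and 0.21 in DKO, from expected counts of 47.3, 51.2 and 30.1 and of 23.95, 25.1 and 10.02. LKO replicate 3 was close to the DKO libraries, and the groups did not overlap. The fold was 0.46 (0.31 to 0.69, edgeR adjusted p = 0.00771), and the call was lost without DKO replicate 3 (0.0547). That library also listed a transcript length of 4266 bases for Bcl2, against 6692 to 7209 in the other 5; 2 transcripts are listed for the gene. In the same libraries, 5 of 7 lymphocyte markers tested fell. Among them, the B-cell genes Ms4a1, Cd79a and Cd79b had log2 fold changes of −1.64, −1.30 and −0.30 and Cd4 had −0.25, beside −1.12 for Bcl2, while the T-cell genes Cd3d (0.66) and Cd8a (0.09) did not pass. The part of these markers in the Bcl2 result was not tested. Mcl1 was the most abundant of the 31 genes, at 236, 220 and 221 FPKM in LKO and 233, 243 and 235 in DKO, with a fold of 1.06 (1.0 to 1.12, edgeR adjusted p = 0.22). It passed without LKO replicate 1 (0.0377). Bcl2l1, which encodes BCL-XL, averaged 23.8 ± 0.375 FPKM over the LKO libraries and 23.3 ± 1.90 over DKO (SD, n = 3 each), with a fold of 0.98 (0.90 to 1.08). Mcl1 made up 89.9% to 91.7% of the summed FPKM of these 3 genes in each library and Bcl2 at most 0.265%. The sum was 245 to 261 FPKM in LKO and 256 to 268 in DKO. It leaves out other survival genes, such as the copies of A1 described below, so these shares are not of all survival genes. Of these copies, Bcl2a1b averaged 171 FPKM in LKO and 148 in DKO, and Bcl2a1a 45.0 and 37.2. Bcl2a1d averaged 39.8 and 25.8, and Bcl2a1c 3.61 and 3.51.

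Neither the apoptosome genes nor the IAPs passed. Apaf1, the scaffold of the apoptosome, averaged 7.13 ± 0.140 FPKM over the LKO libraries and 7.50 ± 0.325 over DKO (SD, n = 3 each), a fold of 1.06 (0.97 to 1.16). Casp9, its initiator caspase, had a fold of 1.01 (0.93 to 1.09). Of the IAPs, Xiap, a direct caspase inhibitor, had 0.96 (0.89 to 1.03) and Birc3, which encodes cIAP2, 0.97 (0.90 to 1.04). Birc2, which encodes cIAP1, was at 12.8, 11.8 and 11.6 FPKM in LKO and at 10.9, 11.2 and 10.6 in DKO, without overlap, at a fold of 0.91 (0.83 to 1.0, edgeR adjusted p = 0.197).

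The calls were not equally stable over the 13 alternatives. Zmat3 and Cdkn1a passed in 13 of 13, Pmaip1 in 12 and Bak1 in 10, missing in each limma fit. Bbc3 passed in 5 of 13. Bcl2 and Moap1, which the FPKM filter of 2 alternatives removed, passed in 9 and 7 of 11. None of the 7 changed direction in these alternatives.

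**Figure D4:**
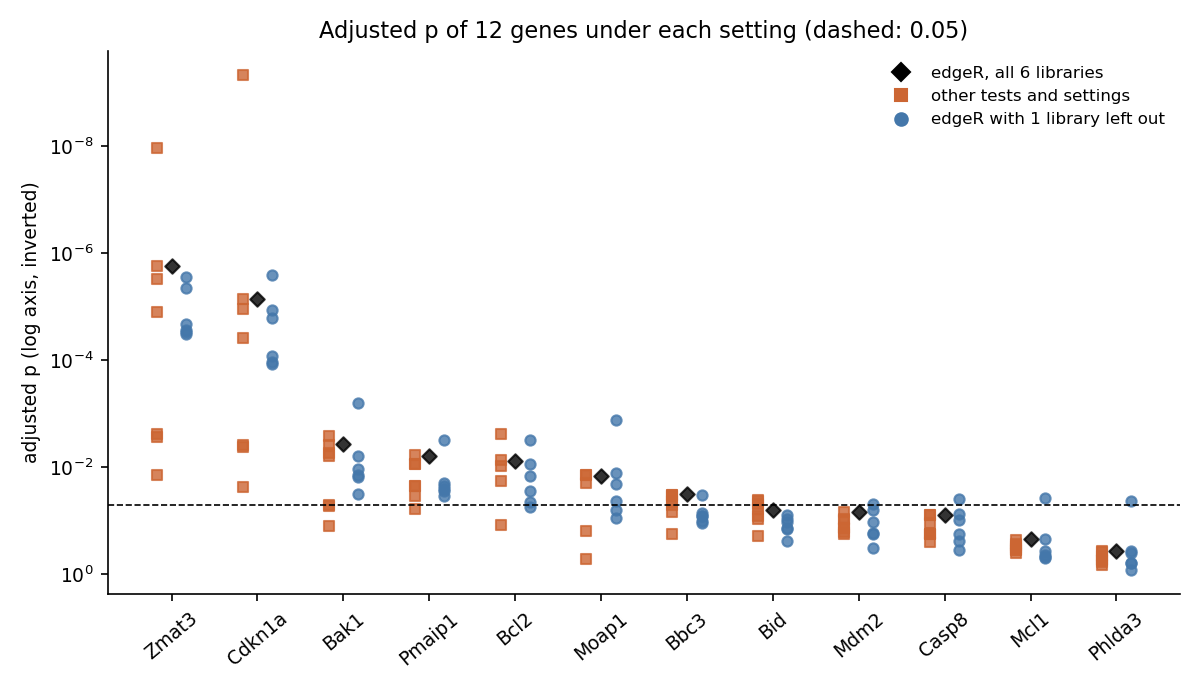
Adjusted p (vertical axis, logarithmic and inverted, dashed line at 0.05) of the 7 genes that passed and of 5 that passed only in some alternatives; diamonds are edgeR with all 6 libraries, squares other tests and settings, circles edgeR with 1 library left out. Zmat3 and Cdkn1a stay past 0.05 throughout, while the points of Bbc3, Bid, Mdm2 and Casp8 lie close to the line.

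Other genes of these pathways were taken from lists that do not hold the 32. Over all genes tested, 7.42% were called higher in DKO and 6.88% lower. The lists were not tested against these shares. Of 22 other p53 targets tested, 1 rose, none fell and 21 did not pass (median log2 fold change −0.01). The one was Gdf15, a stress-induced cytokine of the TGF-beta family, which rose from 3.67 ± 0.847 to 7.22 ± 0.981 FPKM (SD, n = 3 each; fold 1.98, 1.54 to 2.55, edgeR adjusted p = 0.000346). Of 16 p53 regulators, 1 fell and 15 did not pass (median −0.02). It was Mdm4, the MDM2 relative that blocks p53, at a fold of 0.89 (0.82 to 0.96, edgeR adjusted p = 0.0352), and it passed in only 3 of 13 alternatives (adjusted p up to 0.165).

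Of 10 other BCL2 family genes, 3 fell (against 6.88% of all genes called lower), none rose and 7 did not pass (median −0.07). The 3 were copies of the survival gene A1: Bcl2a1d went from 39.8 ± 5.01 to 25.8 ± 2.88 FPKM (SD, n = 3 each; fold 0.65, 0.57 to 0.75, edgeR adjusted p = 7.43e-05), Bcl2a1a had a fold of 0.83 and Bcl2a1b 0.88. These copies are near-identical and share reads, so the split between them is uncertain. Of 15 other caspases and mitochondrial death factors, Htra2, a mitochondrial protease released in apoptosis, rose (fold 1.25, 1.13 to 1.38), Casp1, the inflammasome caspase, fell (fold 0.87, 0.80 to 0.94) and 13 did not pass. Of 5 other IAPs, Naip5, a sensor of bacterial flagellin with near-identical relatives, rose (fold 1.17) and 4 did not pass. Naip5 passed in 3 of 13 alternatives (adjusted p up to 0.231), Bcl2a1a, Bcl2a1b and Casp1 in 10 each, Htra2 in 12 and Bcl2a1d in all 13.

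In death receptor signalling, 2 of 14 genes rose, 2 fell and 10 did not pass. The shares over all genes were 7.42% higher and 6.88% lower. Tnfrsf1a, the main receptor for TNF, rose from 88.7 ± 3.40 to 100 ± 2.39 FPKM (SD, n = 3 each; fold 1.14), and Daxx, an adaptor and chromatin protein, had a fold of 1.18. Tnfaip3, which encodes the NF-kappaB brake A20, fell at a fold of 0.87, and Tnfsf10, which encodes TRAIL, at 0.80. Tnfsf10 is named because so few passed, after its values were seen, and it passed in 5 of 13 alternatives (adjusted p up to 0.211). The Tnfrsf1a call was lost in 1 (adjusted p = 0.0524), the Daxx call in 6 and the Tnfaip3 call in 5 of 13 alternatives (adjusted p up to 0.159 and 0.0706).

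Of 12 necroptosis and pyroptosis genes, 3 rose (against 7.42% of all genes called higher), 1 fell and 8 did not pass (median −0.02). The 3 rises passed in all 13 alternatives. Zbp1, an interferon-induced sensor of Z-form nucleic acids, rose from 37.9 ± 5.52 to 67.8 ± 7.19 FPKM (fold 1.90, 1.68 to 2.15, edgeR adjusted p = 8e-08). Ninj1, which ruptures the plasma membrane in lytic death, rose from 156 ± 9.34 to 227 ± 13.2 FPKM (fold 1.47, 1.36 to 1.59, edgeR adjusted p = 1.85e-07). Mlkl, the executioner of necroptosis, rose from 7.13 ± 0.130 to 9.40 ± 0.0115 FPKM (SD, n = 3 each; fold 1.33, 1.17 to 1.51, edgeR adjusted p = 0.00294). Gsdme, a pore-forming protein cleaved by caspase-3, fell at a fold of 0.68 (0.53 to 0.86, edgeR adjusted p = 0.0228); it too is named because it was the only fall. The Gsdme call held in 7 of 13 alternatives and was lost in DESeq2, in limma without a filter, and without LKO replicate 1 or 2 or DKO replicate 1 or 2 (adjusted p up to 0.122).

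Of 20 cell cycle genes tested, 10 fell (against 6.88% of all genes called lower), none rose and 10 did not pass (median log2 fold change −0.30). Among those that did not pass, Cdk1 (0.05), Mcm6 (0.11) and Tyms (−0.03) had log2 fold changes near or above 0. Top2a, the topoisomerase of dividing cells, fell from 9.87 ± 0.135 to 7.31 ± 0.309 FPKM (SD, n = 3 each; fold 0.75, 0.68 to 0.82, edgeR adjusted p = 4.26e-05). The proliferation marker Mki67 fell at a fold of 0.77 (0.71 to 0.84) and Mcm5, a subunit of the replicative helicase, at 0.71 (0.64 to 0.80). These 3 passed in all 13 alternatives, and the count of falls lay between 5 and 10, with 6 when DKO replicate 3 was left out and 5 in limma without a filter. A link between Cdkn1a and these genes was not tested.

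**Figure D5:**
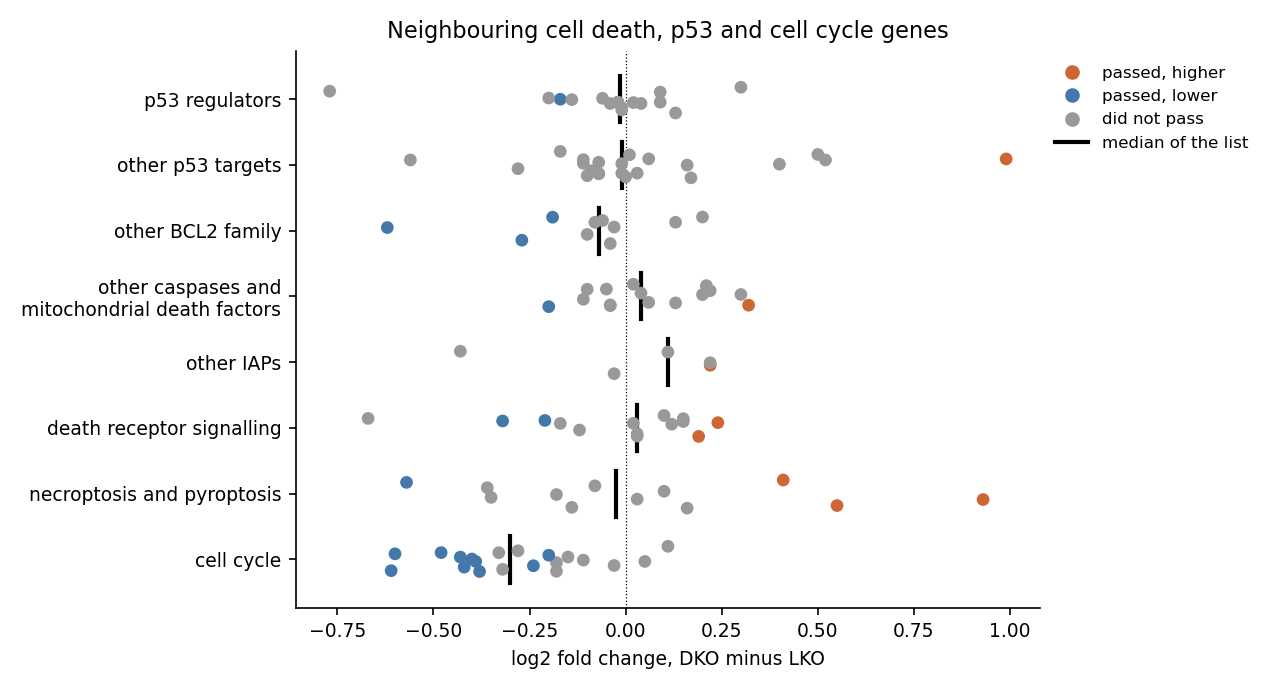
log2 fold change (DKO minus LKO, horizontal axis) of each tested gene in 8 lists that do not hold the 32 genes; orange and blue points passed an edgeR adjusted p of 0.05, grey ones did not, and black bars are list medians. Points of the cell cycle list lie mostly left of 0 (median −0.30), and the medians of the other 7 lists lie between −0.07 and 0.11.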

How the data were processed

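Each deposited file lists, per the file headers, a transcript length, an expected count (the authors' estimate of reads per gene) and an FPKM value made by the authors from it. The submitters' processing notes name Bowtie 0.12.2 and build mm8. No source used here gives the counting tool or its strand setting. Samples were grouped by title. Symbols came from a RefSeq table of GRCm38 (16832 of 16871 gene numbers matched), used for names only.

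Expected counts were rounded and fitted over all 6 libraries with the edgeR 4.0.16 quasi-likelihood test in R 4.3.3 (filterByExpr, TMM), with Benjamini-Hochberg adjustment over 11809 genes. Confidence intervals are of the fitted fold changes at 95%, using the test's degrees of freedom; they and the SDs cover the spread between 3 libraries a group. Alternatives were DESeq2 1.42.0, its size factors in edgeR, no count filter, a replicate block, limma 3.58.1 on log2(FPKM + 1) or log2(FPKM + 0.1) for genes with at least 1 FPKM in at least 3 libraries, no FPKM filter, and each library left out. limma folds are on the log2(FPKM + pseudocount) scale. Fits were tested on simulated data. The genes and lists were chosen with earlier results of these data known. All 32 genes are named, with up to 3 of smallest p from each other list; the promoter stretches of genes that did not pass were added later. The gene knocked out in both groups is not reported here.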

Additional observations from a re-analysis of the deposited data

How the results depend on the processing

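Limma without an FPKM filter called 807 genes in place of 1689, and of the 31 genes 2 were higher and 1 lower in place of 4 and 3; with a pseudocount of 0.1 and the filter it called 1119. The cause was not tested. In the other alternatives, the count over all genes and the counts among the 31 stayed within 1.5 times the reported ones. List counts moved further: over the alternatives, falls among other BCL2 family genes ranged from 1 (DKO replicate 2 left out) to 3, among death receptor signalling genes from 0 to 2 and among necroptosis and pyroptosis genes from 0 to 3. Leaving out single libraries gave 1175 to 1481 genes, with 3 to 6 of the 31 higher and 2 to 3 lower. With the replicate block 1553 genes passed, and the same 7 of the 31. The numbers were not taken as pairs, since the labels do not say that equal numbers share an animal or day. Deviations from the group means had correlations of −0.056 to 0.018 between same-numbered libraries. Over all pairings of LKO with DKO libraries the range was −0.056 to 0.052. Over the 31 genes, 355 of 399 alternative values had the same direction and call, 18 lost and 7 gained a call, and 19 changed sign, none of them of a gene that passed. Sign changes came from leaving out single libraries, for genes near no change, with log2 ranges of −0.075 to 0.069 for Trp53, −0.058 to 0.019 for Ccng1, −0.373 to 0.17 for Gadd45a, −0.016 to 0.141 for Aen, −0.062 to 0.1 for Tnfrsf10b, −0.057 to 0.003 for Bcl2l11, −0.016 to 0.16 for Bad, −0.063 to 0.036 for Bcl2l1 and −0.008 to 0.04 for Casp9. Summing Moap1 with Gm20604, chosen after seeing the data, turned its log2 fold change from −1.718 to 0.058. Depth limits Bcl2 and Moap1, which rested on at most 51.2 and 45.9 counts in a library.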
